A study of Mus musculus with 2 samples.

Results

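The genes described here encode the miR-15, miR-16, miR-195 and miR-497 family of microRNAs, measured in fetal mouse intestine. The members are the miRNA genes Mir15a, Mir16-1, Mir15b, Mir16-2, Mir195a and Mir497b, 6 of the 1973 miRNA genes counted in each library. They were taken by name, with earlier results of these data known. The samples were 2 libraries of RNA under 30 nucleotides, 1 for each biological replicate, from intestine of B6NCrl embryos at embryonic day 16.5, with male and female embryos pooled and the animals labelled healthy. Replicate 2 was a pool of 41 embryos, and the size of the other pool is not stated in the labels. Both libraries belong to 1 group with no treatment or mutation, so levels are compared among genes and between the libraries, and no condition is tested.

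MicroRNAs are cut from hairpin transcripts, and the strand loaded into an Argonaute protein pairs with messenger RNAs mainly through its seed, the bases near its 5′ end. The miR-15/16 family is best known for restraining the cell cycle and survival by repressing mRNAs such as those of cyclins of the D and E types, Cdk6 and Bcl2. Human MIR15A and MIR16-1 are often lost in chronic lymphocytic leukaemia, and the miR-195 and miR-497 genes are known from the arrest of cell division in heart muscle and in muscle stem cells.

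The mature sequences carry the feature that groups these genes. They come from the RefSeq miRNA table on GRCm38.p6, the mm10 assembly, in which all 6 genes had a mature entry, and each is written 5′ to 3′ with its seed, bases 2 to 8, in capitals. Mir16-1 and Mir16-2 encode the same miR-16-5p. Mir497 is the gene on the other strand of the Mir497b locus. miR-322-5p is shown because it carries the same seed.
miR-15a-5p: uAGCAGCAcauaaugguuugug
miR-15b-5p: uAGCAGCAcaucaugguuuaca
miR-497a-5p (Mir497): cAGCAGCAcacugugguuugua
miR-16-5p: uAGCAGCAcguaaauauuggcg
miR-195a-5p: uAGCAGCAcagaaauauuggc
miR-322-5p: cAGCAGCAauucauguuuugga
miR-497b (Mir497b): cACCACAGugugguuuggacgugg

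In the 5 distinct 5p sequences of the miR-15, miR-16, miR-195 and miR-497a genes, positions 2 to 9 are identical, as are positions 17 and 18. miR-322-5p shares positions 2 to 8 but has another base at position 9. Counted over all positions, seed included, the 5p sequences fall into closer and more distant pairs. miR-16-5p and miR-195a-5p are identical at 19 of 21 positions and differ by G10A and U11G, counted from 1 at the 5′ end with the miR-16-5p base first. miR-15a-5p and miR-15b-5p are identical at 18 of 22 positions, with A12C, G20A, U21C and G22A from miR-15a-5p to miR-15b-5p. miR-497a-5p matches miR-15a-5p at 17 of 22 positions but miR-16-5p at only 11 of 22. The mature miRNA of Mir497b does not carry the family seed. The 3p arms of Mir15a, Mir15b, Mir16-1, Mir16-2, Mir195a and Mir497 have 6 distinct seeds, and 0 of the 6 arms have the seed of the 5p arms.

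The members lie in pairs at 3 loci (mm10, symbols and coordinates from GENCODE M21). Mir15a (chromosome 14, 61632027 to 61632110, minus strand) lies in an intron of the long noncoding RNA gene Dleu2, 54 bases from Mir16-1 (61631880 to 61631972). Mir16-1 lies in the introns of Dleu2 too, except that 13 of its bases overlap an exon of 1 of the 15 annotated Dleu2 transcripts. Mir15b (chromosome 3, 69009772 to 69009835, plus strand) and Mir16-2 (69009902 to 69009996), 66 bases apart, lie in an intron of Smc4, which encodes a subunit of the condensin complex that compacts chromosomes in mitosis. Mir195a (chromosome 11, 70235042 to 70235135, plus strand) lies 225 bases from Mir497b (70234692 to 70234816, minus strand), and no annotated gene other than miRNA genes overlaps that pair. The other miRNA gene within 10 kb of a member was Mir497 (70234717 to 70234800, plus strand), which overlaps Mir497b. Mir497 was not found among the genes counted and is not analysed here as a gene of its own.

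**Figure D1:**
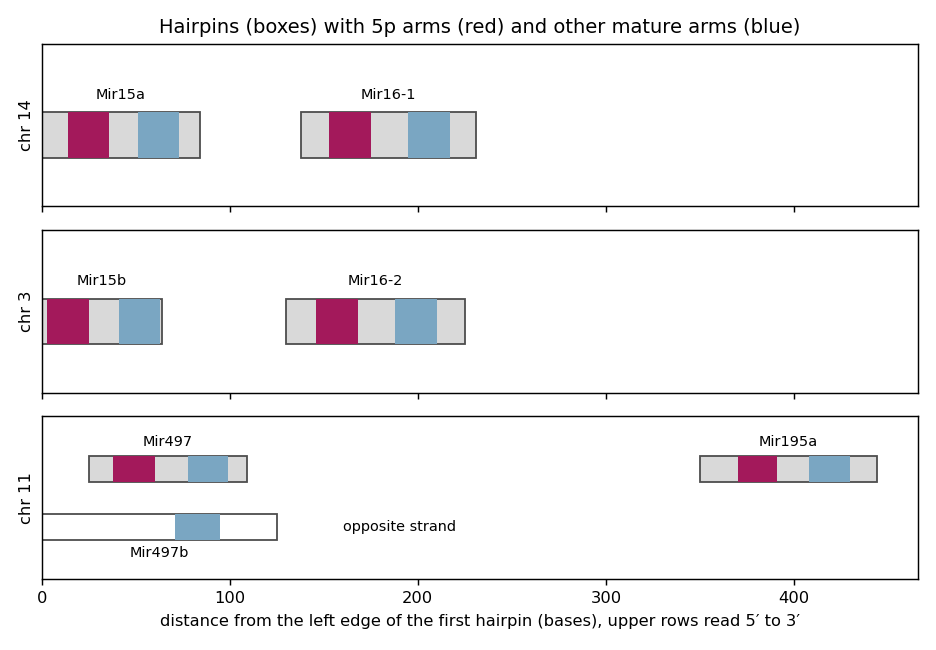
Map of the 3 loci, with distance in bases from the left edge of the first hairpin on the horizontal axis, hairpins as boxes, 5p arms in red and other mature arms in blue; the upper rows read 5′ to 3′. Mir15a and Mir16-1 are separated by 54 bases and Mir15b and Mir16-2 by 66, while Mir497b (open box) lies on the opposite strand over Mir497.

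Replicate 1 held 4261976 counts on the strand of a miRNA gene and replicate 2 held 5680764, and levels are given as counts divided by these totals and scaled to CPM. Reads that mapped to several loci, 26.2% of reads in replicate 1 and 25.7% in replicate 2, are outside all gene counts. Marker miRNAs of the labelled tissue were present: 9 of 9 genes of the intestinal epithelium list were detected in both libraries (90735 and 107593 CPM summed, replicate 1 first), as were 2 of 2 smooth muscle genes (179872 and 172976 CPM). Nearly all of the smooth muscle sum was Mir143 (mean 173802 CPM, beside 2622 CPM for Mir145a). Of all 1973 genes, 716 were detected in at least 1 library. Of other cell types, the endothelial gene stood at 30785 and 33590 CPM and the blood list at 1471 and 1265 CPM. Of the 6 blood genes 5 were counted here, Mir142 was not, and Mir142b had 0 counts. The liver gene Mir122 stood at 994 and 448 CPM and the pancreas list at 1.64 and 4.75 CPM. The part of these cell types in the results below was not tested. Intervals are exact Clopper-Pearson 95% intervals and cover counting error only, since copies made by PCR cannot be told from separate molecules.

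Together the 6 genes held 0.506% ± 0.0128 of the gene counts (SD, n = 2 here and below). Of the counts of these 6 genes, the Mir15a and Mir16-1 pair carried 72.1% ± 1.11, the Mir15b and Mir16-2 pair 19.8% ± 1.16 and Mir195a 8.12% ± 0.0570. These shares leave out the reads on the Mir497 strand of the Mir497b locus (mean 457 CPM, beside 411 CPM for Mir195a). Reads that match both Mir16-1 and Mir16-2 are outside them too, so they are not shares of the whole family. In whole tissue, fewer cells that express a miRNA and less of it in each cell cannot be told apart.

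Mir15a was the highest member by reads placed at each gene, with 10315 counts in replicate 1 and 15482 in replicate 2. These are 2420 CPM (95% interval 2374 to 2467) and 2725 CPM (2683 to 2769), for a mean of 2573 ± 216 CPM. It ranked 64 among all 1973 genes, above 91.1% of the 716 genes detected in at least 1 library. Ranks here and below are by reads placed at each gene, so genes whose mature sequence has a copy elsewhere may rank too low. The level of Mir15a in replicate 2 was above that in replicate 1, and the intervals did not overlap.

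Mir16-1, its neighbour in Dleu2, had 1124 CPM (1092 to 1156) in replicate 1 and 1028 CPM (1002 to 1055) in replicate 2, a mean of 1076 ± 67.6 CPM at rank 92. In CPM, which scales by total counts, replicate 1 was the higher library, the reverse of Mir15a. After TMM scaling the log2 ratio of replicate 2 to replicate 1 was 0.00118 for Mir16-1, so this direction was not seen under TMM.

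Mir15b followed at 771 CPM (745 to 798) and 736 CPM (714 to 758), with a mean of 754 ± 25.2 CPM and rank 105. Mir195a stood at 401 CPM (383 to 421) and 420 CPM (404 to 437), with a mean of 411 ± 13.2 CPM and rank 126. Mir16-2 was the lowest of the members that were clearly detected, at 251 CPM (236 to 266) and 239 CPM (227 to 252), a mean of 245 ± 8.32 CPM and rank 150. For these 3 genes the intervals of the libraries overlapped.

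Mir497b was at the limit of detection on its own strand, with 2 counts in replicate 1 and 1 count in replicate 2 (0.469 CPM, 0.0568 to 1.70, and 0.176 CPM, 0.00446 to 0.981). The limit that a count of 0 allows, 3 counts, is 0.704 CPM in replicate 1 and 0.528 CPM in replicate 2, so Mir497b did not rise above it in either library. The order Mir15a, Mir16-1, Mir15b, Mir195a, Mir16-2, Mir497b was the same in both libraries, and each step exceeded the spread between them. The coefficient of variation between the libraries was 8.39% for Mir15a, 6.29% for Mir16-1 and between 3.22% and 3.40% for Mir15b, Mir195a and Mir16-2. The median over all 364 genes with at least 20 counts summed was 11.4%. That median includes genes with far fewer counts, whose counting error is larger, and genes matched in level were not compared.

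**Figure D2:**
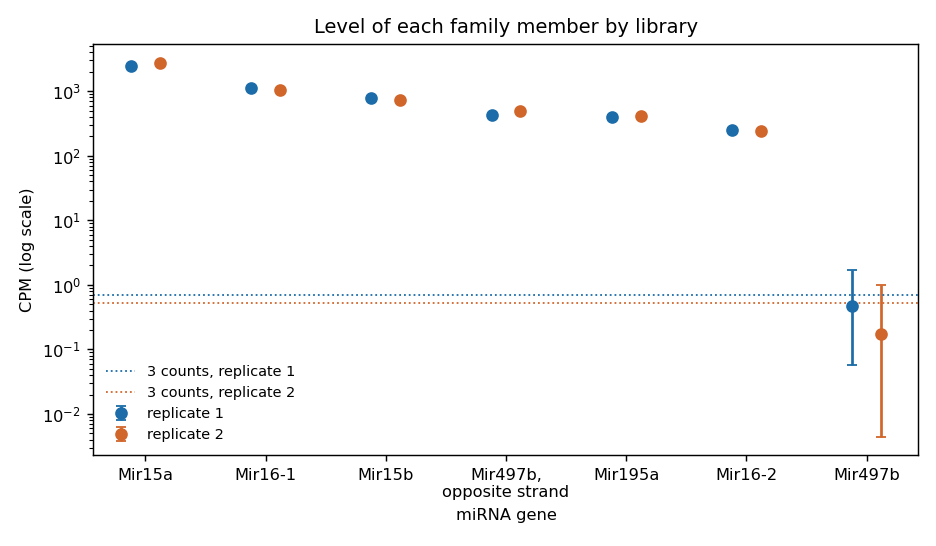
CPM on a log scale for each member, with 1 point for each library and bars for the exact 95% interval (hidden by the points where narrow); dotted lines mark 3 counts. Of the genes read on their own strand, 5 lie between 239 and 2725 CPM, while Mir497b lies below the dotted lines on its own strand and between 423 and 491 CPM on the opposite strand.

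The levels of Mir16-1 and Mir16-2 leave out an unknown part of miR-16-5p. The 22 bases of miR-16-5p are the same in both hairpins, and the shared run extends to 23 bases, after which the hairpins differ. It is shown in capitals within each hairpin, Mir16-1 at chr14:61631928-61631964 on the minus strand and Mir16-2 at chr3:69009911-69009947 on the plus strand of GRCm38.p6.
Mir16-1: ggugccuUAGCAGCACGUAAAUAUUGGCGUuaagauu
Mir16-2: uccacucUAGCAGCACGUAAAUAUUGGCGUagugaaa

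A read that lies inside the capitals matches both genes and belongs to neither alone. A read can be placed at 1 of the pair only if it runs past the capitals or comes from elsewhere in the hairpin, such as the 3p arms, which are identical at 12 of 22 positions. No other hairpin among the 1005 in the RefSeq table held miR-16-5p. How many of the reads that mapped to several loci are miR-16-5p was not tested, so the 1076 and 245 CPM above are levels of the reads placed at each gene and not of miR-16-5p. The mature sequences of Mir15a, Mir15b and Mir195a had no identical copy at another gene of the table, and the longest run that the Mir195a hairpin shared with that of another of the listed genes was 16 bases, with Mir195b.

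Within each of the intronic pairs the miR-15 gene had more counts than the miR-16 gene, with the limit just given for the latter. The ratio of Mir15a to Mir16-1 was 2.15 (2.08 to 2.23) in replicate 1 and 2.65 (2.57 to 2.73) in replicate 2, a mean of 2.40 ± 0.352. The ratio of Mir15b to Mir16-2 was 3.08 in each library (2.87 to 3.30 and 2.89 to 3.27), with a spread of 0.00162. That spread lies far inside the counting intervals, so its small size does not measure how steady this ratio is. Such ratios do not depend on the scaling between libraries. Both stood above 1 by more than their SD. Their intervals within the first pair did not overlap between the libraries and those within the second pair did.

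Between the loci, the Dleu2 genes were the higher copies by reads placed at each gene. Mir15a was 3.42 ± 0.401 times as high as Mir15b (3.14 and 3.70), and Mir16-1 was 4.39 ± 0.127 times as high as Mir16-2 (4.48 and 4.30). The summed pair in Dleu2 was 3.66 ± 0.271 times the summed pair in Smc4. Ratios that include Mir16-1 or Mir16-2, alone or in a sum, leave out the reads that match both of these genes. Which of these genes gave more of the shared mature miRNA was therefore not tested. The ratio of Mir15a to Mir15b is outside this limit. Neighbours in the order of levels stood closer: Mir16-1 was 1.43 ± 0.0420 times Mir15b, Mir15b was 1.84 ± 0.121 times Mir195a, and Mir195a was 1.68 ± 0.111 times Mir16-2.

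**Figure D3:**
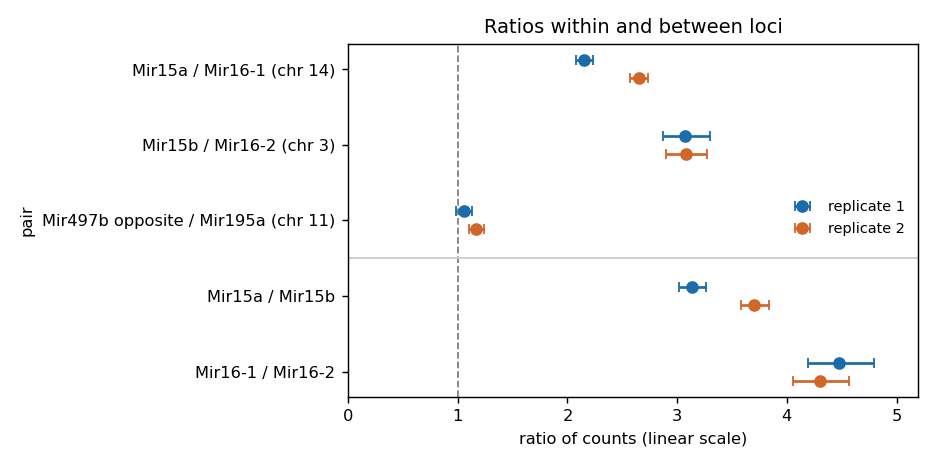
Ratio of counts on a linear axis for pairs of members in each library, with exact 95% intervals as bars and a dashed line at 1; pairs above the grey line share a locus. Mir15b to Mir16-2 lies at 3.08 in each library, Mir15a to Mir16-1 moves from 2.15 to 2.65, and the opposite strand of Mir497b to Mir195a lies near 1.

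At the chromosome 11 locus the reads lay on the strand opposite to the annotated Mir497b. There were 1804 such reads in replicate 1 and 2789 in replicate 2, which made up 99.9% and 99.96% of the reads counted at that gene. On the scale used for the members these are 423 CPM (404 to 443) and 491 CPM (473 to 510), a mean of 457 ± 47.9 CPM, which would rank 123. By contrast, Mir15a, Mir16-1, Mir15b, Mir16-2 and Mir195a had 0 reads on their opposite strands in both libraries.

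Mir497, a family member by its 5p seed, lies on that strand, inside the bounds of Mir497b. The reverse complement of the 24 bases of miR-497b is found whole in the Mir497 hairpin, and the annotated position of miR-497b overlaps 17 bases of miR-497a-3p and 0 bases of miR-497a-5p. The counts give no read sequences, so which arm the reads came from was not tested. These reads were 1.05 (0.986 to 1.13) times those of Mir195a in replicate 1 and 1.17 (1.11 to 1.23) times in replicate 2, a mean of 1.11 ± 0.0807. The ratio was above 1 in both libraries and by more than its SD, but its interval in replicate 1 included 1.

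The family seed was also searched for in all mature miRNAs of the RefSeq table. Bases 2 to 8 of miR-15a-5p occurred in 11 genes, of which 10 were counted here: 5 members and the other genes Mir322, Mir195b, Mir6342, Mir6353 and Mir6419. The last 4 had 0 counts in both libraries, which allows up to 0.704 CPM in replicate 1 and 0.528 CPM in replicate 2. Mir322, the mouse counterpart of human MIR424, lies on the X chromosome and stood at 16147 and 16255 CPM, 6.32 ± 0.50 times Mir15a. The genes with this seed held 2.13% ± 0.0204 of the gene counts, of which Mir322 made up 76.2% ± 0.373 and the 5 members 23.8% ± 0.373. Reads of miR-16-5p that mapped to several loci, and those at the Mir497 locus, are outside these shares. Gene counts also do not separate the arms, and the 3p arms of Mir322 and of the members do not carry this seed. The shares are therefore those of genes, not of mature miRNAs with the seed. Mir503, a neighbour of Mir322 that matches bases 2 to 7 only, had 523 and 496 CPM, between Mir195a and Mir15b in level.

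The replicates were then compared gene by gene with a two-sided exact binomial test, with library sizes scaled by TMM and p-values adjusted by the Benjamini-Hochberg method over the 364 genes with at least 20 counts summed. This test compares a pair of libraries, not conditions, and sets a difference against counting error only. Of the 6 members, 5 entered it and Mir497b did not. Of these 5, 2 were higher in replicate 2 and 0 in replicate 1, beside 24.5% and 27.5% of all tested genes (51.9% in either direction). With 2 of 5 called in either direction, the members did not stand out from that background. Their median log2 ratio of replicate 2 to replicate 1 was 0.06, beside -0.02 over all tested genes.

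Mir15a was higher in replicate 2 by a log2 ratio of 0.30 with a counting error of 0.02 (adjusted p of the exact test 4.42e-60). Mir195a was higher there by 0.20 with an error of 0.05 (adjusted p of the exact test 7.01e-05). Mir15b (0.06 ± 0.03, adjusted p of the exact test 0.12), Mir16-2 (0.06 ± 0.06, 0.411) and Mir16-1 (0.00118 ± 0.0281, 0.993) did not pass. None of the 5 differed by 1.5-fold. The reads at the Mir497 locus, tested in the counts taken without regard to strand, were higher in replicate 2 by 0.33 ± 0.04 (adjusted p of the exact test 1.22e-13).

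Scaling by total counts instead of TMM lowers all log2 ratios by 0.13. Mir15a was then still higher in replicate 2 (0.17, adjusted p of the exact test 4.16e-20). Mir195a was at 0.07 and no longer passed (adjusted p of the exact test 0.214), and Mir16-1 was now higher in replicate 1 (-0.13, adjusted p of the exact test 1.57e-05). Under that scaling 12.6% of all tested genes were higher in replicate 2 and 45.1% in replicate 1 (57.7% in either direction), beside 1 and 1 of the 5 members. With DESeq2 size factors Mir15b also passed (0.08, adjusted p of the exact test 0.0357), which made 3 members higher in replicate 2 and 0 in replicate 1, beside 26.6% and 24.7% of all tested genes (51.4% in either direction). Of the genes with a related seed, Mir322 was higher in replicate 2 by 0.14 under TMM (adjusted p of the exact test 6.31e-81) and by 0.01 under total counts, where it did not pass (0.252). Mir503 did not pass under either scaling (0.05 and -0.08, adjusted p of the exact test 0.282 and 0.101).

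**Figure D4:**
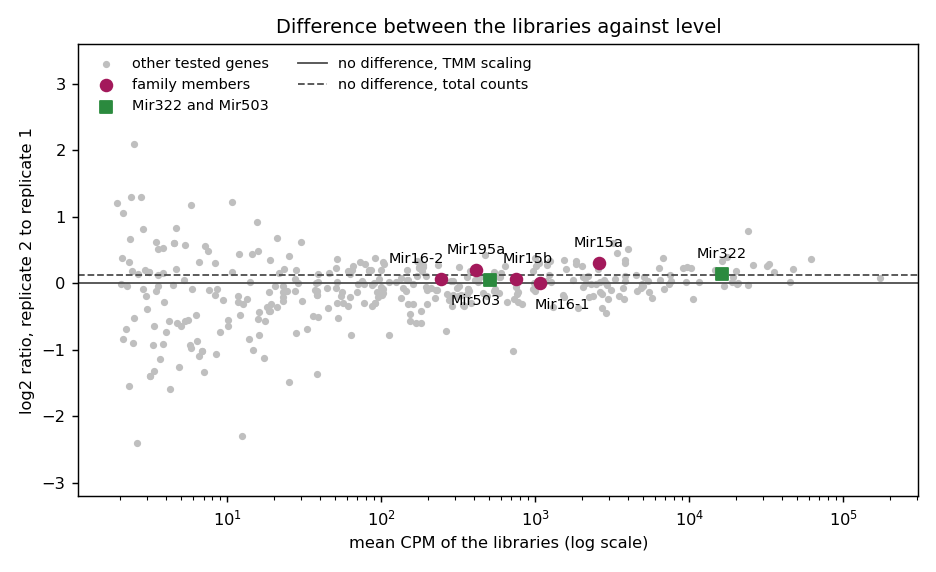
Log2 ratio of replicate 2 to replicate 1 after TMM scaling against mean CPM on a log scale, for the 364 tested genes, with family members as red circles and Mir322 and Mir503 as green squares. Mir15a (0.30) and Mir195a (0.20) lie above both horizontal lines of no difference, the solid one for TMM and the dashed one for total counts, and Mir16-1 lies on the solid line.

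The genes closest in level to Mir15a over the 2 libraries, by Euclidean distance in log2(CPM + 1), were Mirlet7f-2 (2464 and 2612 CPM, distance 0.07), Mir181d (2729 and 2540 CPM, distance 0.20) and Mir139 (2606 and 2368 CPM, distance 0.23). Mirlet7f-2 was, like Mir15a, higher in replicate 2 on this scale, and the others were higher in replicate 1. With 1 tissue and a pair of libraries this likeness describes levels of reads placed at each gene only. Whether the mature sequences of Mirlet7f-2, Mir181d and Mir139 have copies at other genes was not tested.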

How the data were processed

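Per the file headers in each library's readme, the deposited tables, 1 a library, were made on mm10 with GENCODE M4. They hold raw counts of reads for each miRNA gene, not normalized by the authors. Not given in the sources used here are the aligner, the counting program and any trimming. The tables have no header. What each column holds was read from its values: unstranded counts, counts on the strand of the gene and counts on the opposite strand, which sum to the first in every gene row. The main values use the strand of the gene.

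Identifiers were matched without version to GENCODE M21 (1894 of 1973 found, the 6 members among them); M21 bounds may differ from those of M4. Unmapped reads (19.5% and 17.2%), multiply mapped reads (26.2% and 25.7%) and reads outside annotated genes (3.69% and 2.88%, replicate 1 first) stayed out of totals and tests. CPM was not divided by length, since a read of this size class covers a whole mature miRNA. The labels give the replicates separate biosamples under 1 donor identifier.

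With 1 group, edgeR's quasi-likelihood test, which needs replicates on each side of a contrast, was not used. TMM factors came from edgeR 4.0.16, size factors from DESeq2 1.42.0 and R 4.3.3, and the exact binomial test from scipy 1.17.1 with Python 3.11.15 (prior of 0.5 counts in log2 ratios, threshold 0.05). The test was run on simulated counts that held counting error only, with total counts as library sizes. That run cannot show how the test behaves where pools of embryos differ. Named genes were the members, genes with their seed, miRNA genes within 10 kb and the 3 genes nearest in level to the highest member. The members, lists and tests were chosen with earlier results of these data known. Alternatives were unstranded counts, other totals, each library alone, other scalings, count minimums of 1 and 100, and a 1.5-fold minimum. The Mir15a hairpin was not used here.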

Additional observations from a re-analysis of the deposited data

Results flagged for a closer look

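Reads on the opposite strand of Mir497b, a column outside the main measurement, numbered 1804 in replicate 1 and 2789 in replicate 2. Both stand above the 3 counts that a count of 0 allows. Mir497b had 2 and 1 counts on its own strand.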

How the results depend on the processing

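Counts taken without regard to strand leave the ratios between genes as they are by construction, since the genes compared have 0 opposite-strand reads, and are no check of them. Single libraries gave the per-library values printed above. With a total that leaves out the most abundant gene, Mir15a, Mir16-1, Mir15b, Mir195a and Mir16-2 stood at 3113, 1302, 912, 497.2 and 296 CPM. With all reads of the library as the total they stood at 1301, 542, 380, 208 and 124 on the same scale. Without regard to strand Mir15b, Mir195a and Mir16-2 had 726, 396 and 236 CPM, and Mir497b 440 CPM, which is the opposite-strand signal. The share of the 6 members was 0.612%, 0.255% and 0.531% under these changes, in that order, and 0.551% with the opposite-strand reads of Mir497b added. That addition, chosen after seeing the data, raised the members' share among genes with their seed to 25.4%.

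Over all tested genes, those higher in replicate 2 went from 89 to 46 under total counts and to 9 with a 1.5-fold minimum, and those higher in replicate 1 from 100 to 164 and to 31. Among the members, those higher in replicate 2 went from 2 to 1 under total counts, to 0 with the fold minimum and to 1 with Mir15a not counted, a choice made after seeing the data. Under total counts 1 was higher in replicate 1: Mir16-1 went from 0.00118 to -0.13. With at least 1 count summed Mir15b passed (0.10). No paired analysis was possible because both libraries form 1 group. Depth limits how low a level could be seen for Mir497b on its own strand and the 4 genes with the seed at 0 counts. Why their counts are low was not tested.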
